A study of Homo sapiens with 6 samples.

Results

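The miR-181 family was followed in small RNA libraries of Caco-2 cells, an established line from a colorectal adenocarcinoma. Its members were taken by name from the count table: the 5p arms hsa-miR-181a-5p, hsa-miR-181b-5p, hsa-miR-181c-5p and hsa-miR-181d-5p, and the 3p arms hsa-miR-181a-3p, hsa-miR-181a-2-3p and hsa-miR-181c-3p (written without the species prefix from here on), which makes 7 of the 2588 miRNAs listed. Libraries came from 3 input samples and from 3 samples immunoprecipitated with an antibody against 7-methylguanosine (m7G-RIP). Both groups were untreated Caco-2 total RNA. The m7G-RIP protocol of the study starts from decapped RNA that is denatured by heat, keeps an aliquot as input, and elutes bound RNA with 7-methyl-GTP. No library with a control antibody was analysed here, so values in m7G-RIP are set against the input alone, and the labels do not say whether replicates are separate cultures, so that p-values measure the spread between these libraries, which may be technical.

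A miRNA gene is transcribed as a hairpin that is cut to a short duplex. Each side of the duplex, the 5p and the 3p arm, can be loaded into the silencing complex, where bases 2 to 8, the seed, select target mRNAs. miR-181 is a deeply conserved family best known from lymphocytes, in which miR-181a sets the sensitivity of developing T cells to antigen, and it is also expressed in many epithelia and tumours. m7G within a miRNA carries a methyl group on a nitrogen of guanosine that takes no part in ordinary G:C pairing, so the base remains readable to a sequencer and has to be found by antibody or chemistry.

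The mature sequences are given with the seed in capitals, because some members that differ at few bases turned out far apart in m7G-RIP. They are RefSeq entries on GRCh38.p14, written 5′ to 3′, with the 5p arms first.
miR-181a-5p: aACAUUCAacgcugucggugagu
miR-181b-5p: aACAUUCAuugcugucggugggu
miR-181c-5p: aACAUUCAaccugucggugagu
miR-181d-5p: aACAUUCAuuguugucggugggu
miR-181a-3p: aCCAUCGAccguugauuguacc
miR-181a-2-3p: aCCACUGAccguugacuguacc
miR-181c-3p: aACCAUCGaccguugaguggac

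All 4 of the 5p arms share the seed ACAUUCA. Counting positions from 1 at the 5′ end, miR-181b-5p differs from miR-181a-5p by A9U, C10U and A21G, and miR-181d-5p differs from miR-181b-5p by C12U alone. miR-181c-5p is miR-181a-5p without the base at position 11. The 3p arms do not share a seed: miR-181a-2-3p differs from miR-181a-3p by U5C, C6U and U16C, of which the first and second lie inside it, and miR-181c-3p is 4 edits away from miR-181a-3p. The only other listed miRNA found with the seed of the 5p arms, miR-4262, had 0 counts in every library.

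The family comes from 6 hairpins in 3 clusters. MIR181A1 (chromosome 1 of GRCh38, 198859044 to 198859153, minus strand) and MIR181B1 (198858873 to 198858982) lie in an intron of the long noncoding RNA gene MIR181A1HG. MIR181A2 (chromosome 9, 124692442 to 124692551, plus strand) lies in an intron of MIR181A2HG and opposite an intron of NR6A1, and the miR-181b-5p copy of MIR181B2 (124693725 to 124693747) lies in the same genes. MIR181C (chromosome 19, 13874699 to 13874808, plus strand) and MIR181D (13874875 to 13875011) lie in an intron of NANOS3. miR-181a-5p and miR-181b-5p are therefore each made from 2 loci with identical mature sequence, while every other member has 1 locus, and the 3p arms miR-181a-3p and miR-181a-2-3p tell the chromosome 1 and chromosome 9 copies of miR-181a apart.

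Total counts on miRNAs ran from 16466178 to 19628046 per input library, and from 1654102 to 3105129 per m7G-RIP library. In CPM (counts scaled to a common library total after correction by edgeR's TMM factors), 3 counts stand for 0.235 to 0.262 in input libraries and for 0.675 to 1.1 in those of m7G-RIP. Of 8 miRNAs known as epithelial or intestinal markers (miR-192, miR-194, miR-215 and the miR-200 family), 8 had at least 10 counts in every input library. Their summed level was 113937 to 121648 CPM in the input and 37937 to 47159 CPM in m7G-RIP. Most of the m7G-RIP sum was miR-200c-3p, which had a mean of 20816 CPM in the input and 30401 CPM in m7G-RIP. The rest of this list lay below the input in m7G-RIP. Of 5 haematopoietic markers (miR-142-3p, miR-142-5p, miR-150-5p, miR-155-5p and miR-223-3p), 3 had at least 10 counts in every input library. The 5 summed to between 330.0 and 338.2 CPM in the input and between 968 and 1157 CPM in m7G-RIP, almost all of it miR-155-5p. miR-142-3p went the other way, with 62, 75 and 78 counts in the input and 1, 0 and 7 in m7G-RIP. miR-223-3p had 0 counts in every input library. Mesenchymal markers (miR-143-3p, miR-145-5p and miR-199a-3p) summed to between 197 and 211 CPM in the input and between 44.3 and 64.8 CPM in m7G-RIP.

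The family took 0.292% to 0.319% of all counts in the input libraries and 0.124% to 0.130% in the m7G-RIP libraries. All 7 members were among the 800 miRNAs left by the low-count filter of edgeR. In m7G-RIP, 6 of the 7 were depleted and 0 enriched (quasi-likelihood test of edgeR, Benjamini-Hochberg adjusted over all 800, called under 0.05), where 38.1% of all tested miRNAs were depleted and 40.1% enriched. At an unadjusted p under 0.05 the count of enriched members was also 0, and DESeq2's Wald test gave 0 enriched and 7 depleted. Scaled by total counts, the edgeR test gave 1 enriched member and 4 depleted, and by the upper quartile 1 and 5. Both arms of miR-181c passed the filter through the input alone and so had to be lower, and of the other 5 members 4 were depleted. The median log2 enrichment (m7G-RIP over input) of these 5, the members with at least 10 counts per library, was -1.29, beside 0.16 over all tested miRNAs. Over all 7 it was -3.17, the value of miR-181c-5p itself. The members were far from uniform, with log2 enrichments from -5.29 to -0.32. The zero of this scale depends on the normalization: relative to TMM, scaling by total counts moved the median of all tested miRNAs by 1.09 and upper-quartile factors moved it by 0.82, while DESeq2's size factors moved it by -0.34. Of all calls, 51.3% were enriched under TMM, 69.1% when scaled by total counts and 64.8% by the upper quartile. Comparisons between members within a library, given further on, need no such factor.

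miR-181a-5p, the member that sets T cell receptor sensitivity in thymocytes, was the most abundant. It had 2781, 2787 and 2833 CPM in input replicates 1, 2 and 3, and 218, 185 and 195 CPM in m7G-RIP replicates 1, 2 and 3. The input libraries lay within a narrow band and every m7G-RIP library lay far below them. Its log2 enrichment was -3.81 (standard error, SE, 0.15, edgeR adjusted p = 1.19e-10), a 14.0-fold lower level, with 722 of the tested miRNAs above it. Leaving out each library in turn gave values from -3.92 to -3.73.

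miR-181b-5p has the same seed, the part that selects targets. It had 1350, 1431 and 1462 CPM in the input and 601, 612 and 519 CPM in m7G-RIP, a smaller drop that also left no overlap between the groups. The log2 enrichment was -1.29 (SE 0.14, edgeR adjusted p = 1.73e-06). With total counts as the scaling it was -0.20 (SE 0.11) and no longer called (adjusted p = 0.13 from the edgeR test). For this member the size of the drop, and whether one was called, thus rest on the normalization. From second place in the input it became the most abundant member of the family in m7G-RIP.

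miR-181d-5p, the chromosome 19 relative of miR-181b-5p, had 65.5, 70.1 and 77.2 CPM in the input against 63.6, 56.3 and 50.5 CPM in m7G-RIP. The m7G-RIP libraries were below the input libraries, but the gap between the nearest libraries was smaller than the spread within either group. Its log2 enrichment of -0.32 did not pass the test (SE 0.18, edgeR adjusted p = 0.124). It changed sign with the scaling, to 0.77 with total counts (adjusted p = 0.00175) and 0.50 with upper-quartile factors (adjusted p = 0.0329), and passed as depleted with DESeq2's size factors at -0.67 (adjusted p = 0.00392, all from the edgeR test) and without m7G-RIP replicate 1 at -0.44 (adjusted p = 0.0363), so that no direction is given here for miR-181d-5p.

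miR-181c-5p, made from the hairpin next to MIR181D, was scarce. It had 32, 30 and 27 counts in the input and 0, 3 and 0 in m7G-RIP. Summed over libraries and scaled by the TMM-corrected sizes, the m7G-RIP level was 10.7% of the input level, with an exact 95% interval of 2.18% to 32.4% that covers counting error only. The fitted log2 enrichment was -3.17 (SE 0.83, edgeR adjusted p = 0.00344). Having passed the filter through its input counts alone, this member had little chance to show anything but depletion, and it was not tested when any input library was left out. The fitted value was -7.44 without m7G-RIP replicate 2, where both remaining m7G-RIP libraries had 0 counts, and is then no bound.

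**Figure D1:**
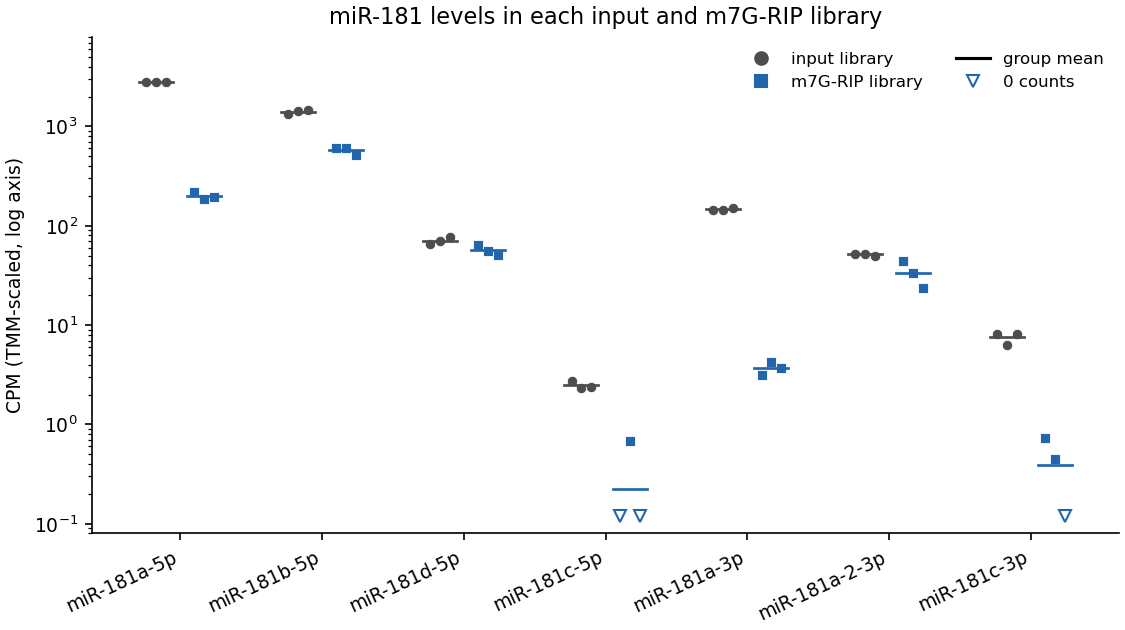
Level of each miR-181 member in CPM (TMM-scaled, log axis) in the 3 input libraries (grey circles) and the 3 m7G-RIP libraries (blue squares), with group means as lines and libraries with 0 counts as open triangles at the foot of the axis. The groups are widely separated for miR-181a-5p and miR-181a-3p and close together for miR-181d-5p and miR-181a-2-3p.

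The 3p arms are the sides of the hairpins that are usually less abundant. miR-181a-3p, from the chromosome 1 hairpin, had 144, 145 and 149.95 CPM in the input and 3.15, 4.28 and 3.68 CPM in m7G-RIP. It was the most depleted member, with a log2 enrichment of -5.29 (SE 0.23, edgeR adjusted p = 2.47e-10), and only 23 of the tested miRNAs had a lower value. Its m7G-RIP level rests on 13, 19 and 10 counts.

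miR-181a-2-3p, the same arm of the chromosome 9 hairpin, had 52.5, 52.5 and 49.8 CPM in the input and 43.9, 33.5 and 23.6 CPM in m7G-RIP. The input libraries agreed closely while the m7G-RIP libraries were spread, all of them below the input. Its log2 enrichment was -0.61 (SE 0.23, edgeR adjusted p = 0.0292), called under TMM but above zero with total counts (0.47) and upper-quartile factors (0.22). Leaving out any input library ended the call, with adjusted p-values of 0.0862, 0.0891 and 0.105 (edgeR test) without input replicates 1, 2 and 3.

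miR-181c-3p had 95, 81 and 94 counts in the input and 3, 2 and 0 in m7G-RIP. That is 5.91% of the input level, with an exact 95% interval of 1.9% to 14.0% for counting error. The fitted log2 enrichment was -4.06 (SE 0.59, edgeR adjusted p = 3.44e-05). Like miR-181c-5p it passed the filter through the input, and these 2 members are among 45 tested miRNAs that never exceeded 3 counts in m7G-RIP.

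In TMM-scaled CPM, 7 of 7 members had every m7G-RIP library below every input library, as did 40.8% of the tested miRNAs, while 41.4% of the tested miRNAs and 0 members lay wholly above. The 2 arms of miR-181c had to lie below, by the way they passed the filter. With CPM taken over total counts instead of TMM-corrected sizes, 5 of 7 members lay wholly below the input (26.8% of the tested miRNAs) and 2, miR-181d-5p and miR-181a-2-3p, wholly above it (55.0% of the tested miRNAs). The remaining arms of the same hairpins were rarer still. miR-181b-3p, from the chromosome 1 copy of miR-181b, had 52, 65 and 60 counts in the input and 4, 10 and 6 in m7G-RIP, with a log2 enrichment of -1.45 (SE 0.46, edgeR adjusted p = 0.0106), not called with total counts (adjusted p = 0.503) or upper-quartile factors (adjusted p = 0.227). miR-181b-2-3p, from the chromosome 9 copy, had 10, 6 and 7 counts against 1, 0 and 1, and miR-181d-3p had 1, 4 and 1 against 0, 2 and 6. Neither of these passed the filter. Scaled by the TMM-corrected sizes and summed, miR-181b-2-3p in m7G-RIP was 27.7% of the input level, with an exact 95% interval of 3.17% to 112% for counting error, so that a difference was not detectable at this depth. miR-181d-3p was at 425% of the input level, with an interval of 129% to 1487%, but 6 of its 8 counts came from m7G-RIP replicate 3 and the groups overlapped. In TMM-scaled CPM it was the only arm of these hairpins with a higher mean level in m7G-RIP than in the input.

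**Figure D2:**
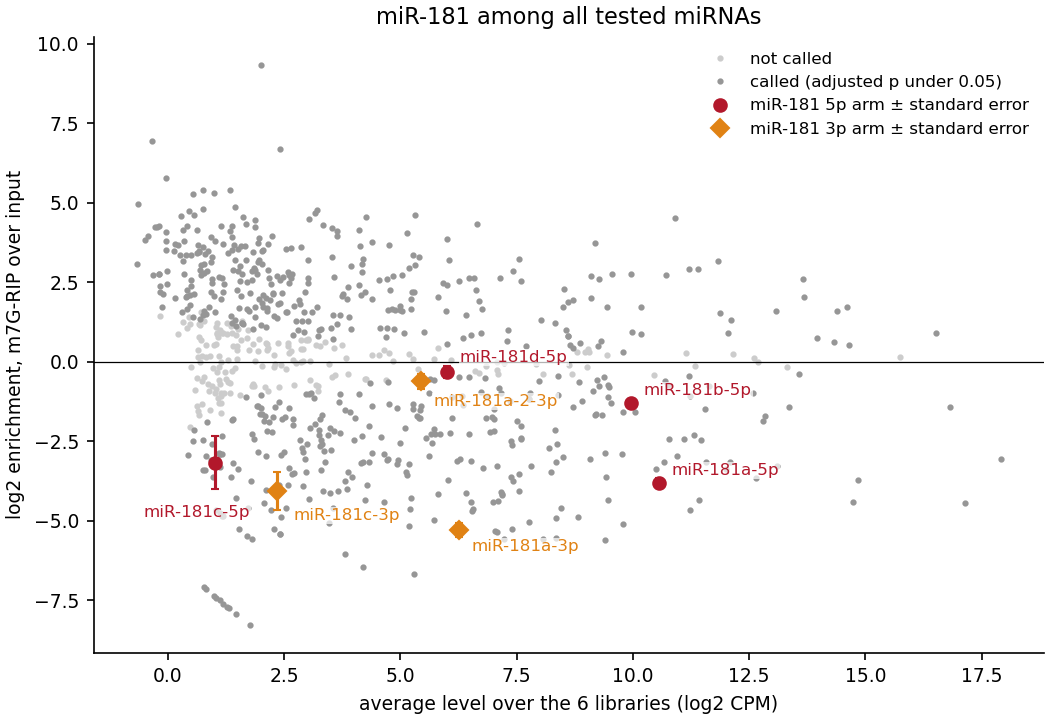
Log2 enrichment of m7G-RIP over input against the average level (log2 CPM) of the 800 tested miRNAs, with the 5p arms of miR-181 as red circles, its 3p arms as orange diamonds and bars for standard errors. The 7 members spread from -5.29 to -0.32, and the abundant members miR-181a-5p and miR-181b-5p stand apart at similar levels.

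By level the members kept a clear order in the input, with no overlap between neighbours in CPM: miR-181a-5p, miR-181b-5p, miR-181a-3p, miR-181d-5p, miR-181a-2-3p, miR-181c-3p and miR-181c-5p. A read covers a whole mature miRNA of 22 or 23 bases here, so these levels need no correction for length. In m7G-RIP the order was miR-181b-5p, miR-181a-5p, miR-181d-5p, miR-181a-2-3p, miR-181a-3p and then both arms of miR-181c, which overlapped. miR-181a-5p ranked at place 42 among all listed miRNAs in the input and at place 117 in m7G-RIP, whereas miR-181b-5p moved from 55 to 69. Low counts of miRNAs with 2 loci mostly look as if a read was counted at both. That would raise the levels and ranks of miR-181a-5p and miR-181b-5p against miRNAs with a single locus. Their own counts were not all even (miR-181a-5p had 32635, 35593 and 32479 in the input and 898, 824 and 530 in m7G-RIP), so this was not shown for them. Dividing their counts by 2 left the order of the members by mean share as it was.

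The make-up of the family was thus turned over. miR-181a-5p supplied 62.3% ± 0.721 (SD, n = 3) of the family's counts in the input and 22.9% ± 1.98 (SD, n = 3) in m7G-RIP. miR-181b-5p went the other way, from 31.5% ± 0.706 to 66.2% ± 2.07 (SD, n = 3 each). The share of miR-181d-5p was 1.58% ± 0.0994 and 6.50% ± 0.289 (SD, n = 3 each), and that of miR-181a-2-3p was 1.15% ± 0.0553 and 3.82% ± 0.874 (SD, n = 3 each). miR-181a-3p fell from 3.26% ± 0.0218 to 0.428% ± 0.077 (SD, n = 3 each). The 3p arms together held a similar share in both groups, 4.58% ± 0.0611 in the input and 4.29% ± 0.849 in m7G-RIP (SD, n = 3 each). This sum hides opposite changes, since the share of miR-181a-3p fell and that of miR-181a-2-3p rose. Low counts of miRNAs with 2 loci mostly look as if a read was held at both, though the counts of miR-181a-5p and miR-181b-5p were not all even. With the counts of these members divided by 2, a choice made after seeing the data, their shares were 58.7% and 29.6% in the input and 20.7% and 59.8% in m7G-RIP. The shares of the members with 1 locus then nearly doubled, to 2.97% and 11.7% for miR-181d-5p, 6.14% and 0.773% for miR-181a-3p, 2.16% and 6.88% for miR-181a-2-3p, and 8.62% and 7.73% for the 3p arms together (input and m7G-RIP), with each in the same order between the groups as before.

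**Figure D3:**
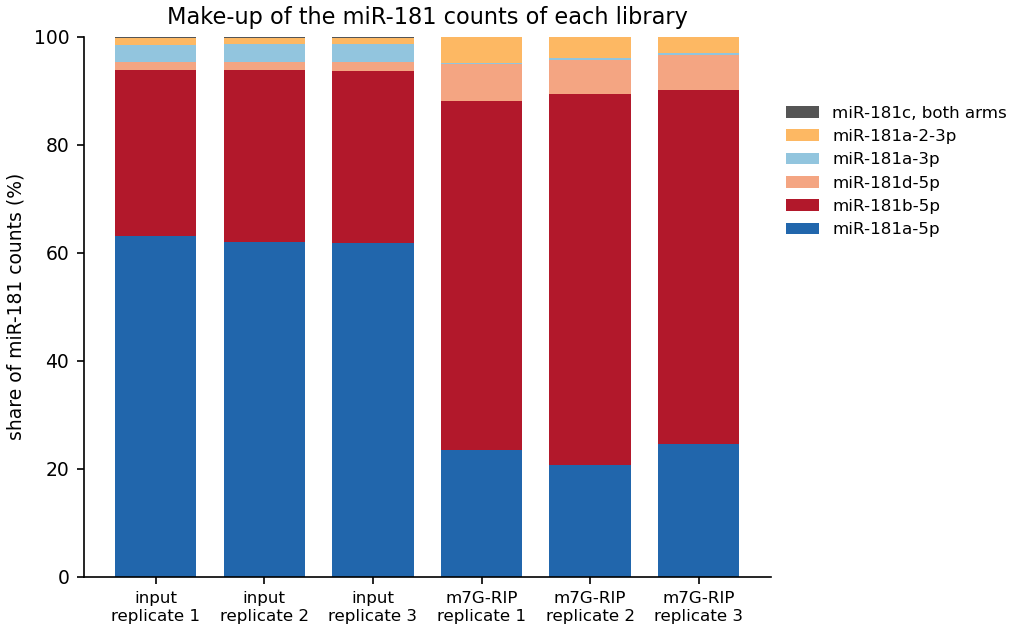
Share of the miR-181 counts (%) taken by each member in each of the 6 libraries, stacked. miR-181a-5p is the largest part of every input library, at 62.3% on average, and miR-181b-5p of every m7G-RIP library, at 66.2%.

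To compare members with each other, the log2 ratio of their counts was taken within each library and averaged by group. Such a ratio does not depend on library size or on the normalization. Counting a read at both loci of miR-181a-5p or miR-181b-5p would change the ratio of either to a member with 1 locus by the same factor in every library, which the difference between m7G-RIP and input leaves out. The 5 members with at least 10 counts in every library gave 10 pairs, of which 9 had ratios that did not overlap between input and m7G-RIP. Of all pairs of miRNAs with such counts, 83.3% were separated in the same way, so separation as such does not set this family apart. With 3 libraries against 3, the exact permutation test (two-sided) cannot go below p = 0.1, which each of these 9 pairs had (adjusted p = 0.111 over the 10 pairs).

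Arms of one name changed their order. In the input, miR-181a-3p made up 73.3%, 73.4% and 75.1% of the reads on both miR-181a 3p arms, and miR-181a-2-3p the rest. In m7G-RIP its part was 6.70%, 11.3% and 13.5%. All 3 m7G-RIP libraries thus had the arms in the opposite order to all 3 input libraries. The log2 ratio of miR-181a-3p to miR-181a-2-3p went from 1.5 ± 0.07 (SD, n = 3) to -3.10 ± 0.58 (SD, n = 3), a difference of -4.61, or 24.4-fold (exact permutation test, two-sided, p = 0.1, the smallest possible). It lay between -4.85 and -4.28 with each library left out and was -4.25 with a pseudocount of 5 in place of 0.5. A difference of that size or more was found in 16.9% of all pairs formed from miRNAs of the same minimum count. These arms have 3 of 22 bases exchanged, none of them a guanosine, and their 4 guanosines are at the same positions.

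**Figure D4:**
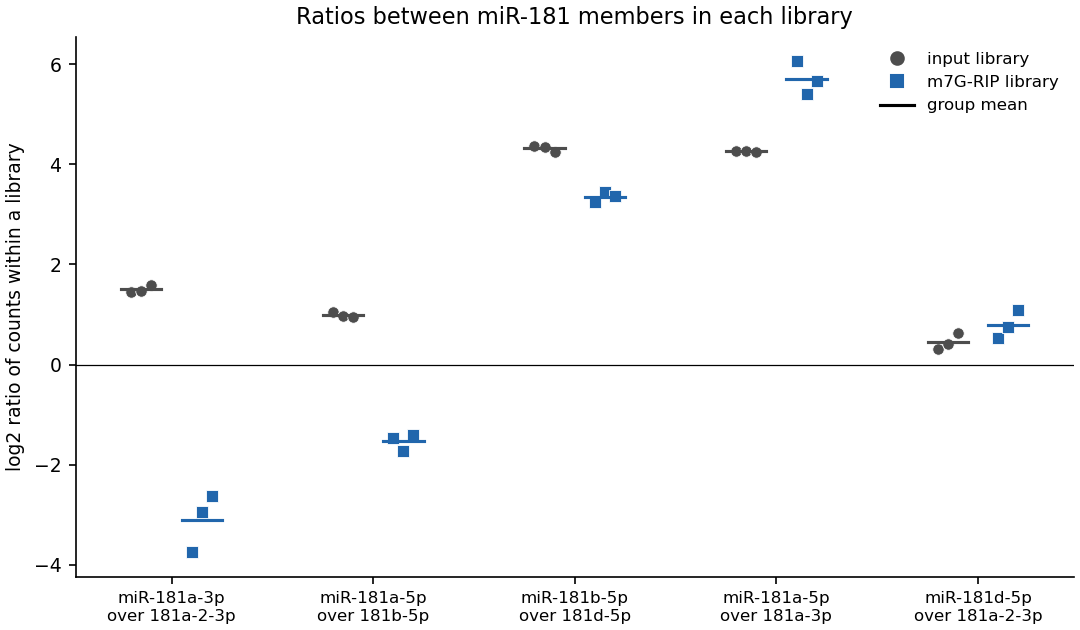
Log2 ratio of the counts of 2 members within each library, for 5 pairs, in input (grey circles) and m7G-RIP (blue squares), with group means as lines. The ratio of miR-181a-3p to miR-181a-2-3p and that of miR-181a-5p to miR-181b-5p change sign between the groups, and that of miR-181d-5p to miR-181a-2-3p overlaps.

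Among the 5p arms, the count of miR-181b-5p was 48.5%, 51.3% and 51.6% of that of miR-181a-5p in the input and 276%, 330.1% and 266% in m7G-RIP. The difference in log2 enrichment between miR-181a-5p and miR-181b-5p was -2.52, or 5.73-fold, on ratios that varied by an SD of 0.05 in the input and 0.17 in m7G-RIP (exact permutation test, two-sided, p = 0.1). As large a difference was found in 45.0% of all pairs. Of the substitutions between these arms, A21G turns the last bases from gugagu into guGGGu in miR-181b-5p, and miR-181d-5p has the same end.

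miR-181d-5p, which differs from miR-181b-5p at a single base, stood at 4.86%, 4.90% and 5.28% of the miR-181b-5p count in the input and at 10.6%, 9.19% and 9.72% in m7G-RIP. This is a difference in log2 enrichment of -0.97 for miR-181b-5p against miR-181d-5p, or 1.96-fold (exact permutation test, two-sided, p = 0.1), and from -1.02 to -0.92 with each library left out, a size that 77.0% of all pairs reached or passed. The percentages would double, in both groups alike, with the counts of miR-181b-5p divided by its 2 loci. Whether reads crossed between these near-identical members was not tested. The difference between miR-181d-5p and miR-181a-2-3p, 0.33 on the log2 scale, was within the spread of the libraries (exact permutation test, two-sided, p = 0.2).

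Arms of one hairpin can be set against each other for miR-181c, which has 1 locus, and roughly for miR-181a, whose 5p arm pools both loci. The count of miR-181c-3p was 297%, 270.0% and 348% of that of miR-181c-5p in the input, so that here the 3p arm was the more abundant, while in m7G-RIP both arms were too scarce for a ratio. The count of miR-181a-3p was 5.18%, 5.21% and 5.29% of that of miR-181a-5p in the input and 1.45%, 2.31% and 1.89% in m7G-RIP. That of miR-181a-2-3p was 1.89%, 1.89% and 1.76% in the input and 20.2%, 18.1% and 12.1% in m7G-RIP. Relative to the shared 5p arm, the chromosome 1 arm was thus lower and the chromosome 9 arm higher in m7G-RIP, by differences in log2 enrichment of miR-181a-5p against each of 1.45 and -3.16 (exact permutation tests, two-sided, p = 0.1 for both), sizes that 66.2% and 34.5% of all pairs reached or passed.

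Sequence features were computed for the 714 tested miRNAs with a RefSeq mature sequence, since the study ties m7G to G-rich miRNAs. The study measured base content on primary hairpins, so the mature-sequence values in this paragraph are a different measure. Guanosine makes up 30.4% of the bases of miR-181b-5p and miR-181d-5p, 27.3% of miR-181c-3p, 26.1% of miR-181a-5p, 22.7% of miR-181c-5p and 18.2% of miR-181a-3p and miR-181a-2-3p, beside a median of 27.3% over the tested miRNAs. miR-181b-5p and miR-181d-5p contain GGG, read on the miRNA strand only and including longer runs, as do 36.6% of these tested miRNAs, while the other 5 members do not. The 261 tested miRNAs with GGG had a median log2 enrichment of 2.08 and the 453 without it of -0.76. Both miR-181 members with GGG lay below the first of these medians, and of the members without it, miR-181a-2-3p lay above the second. Across the 714 miRNAs, which share libraries and differ in depth, log2 enrichment and guanosine share had a Pearson r of 0.498 and a Spearman rho of 0.497, given as a description.

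**Figure D5:**
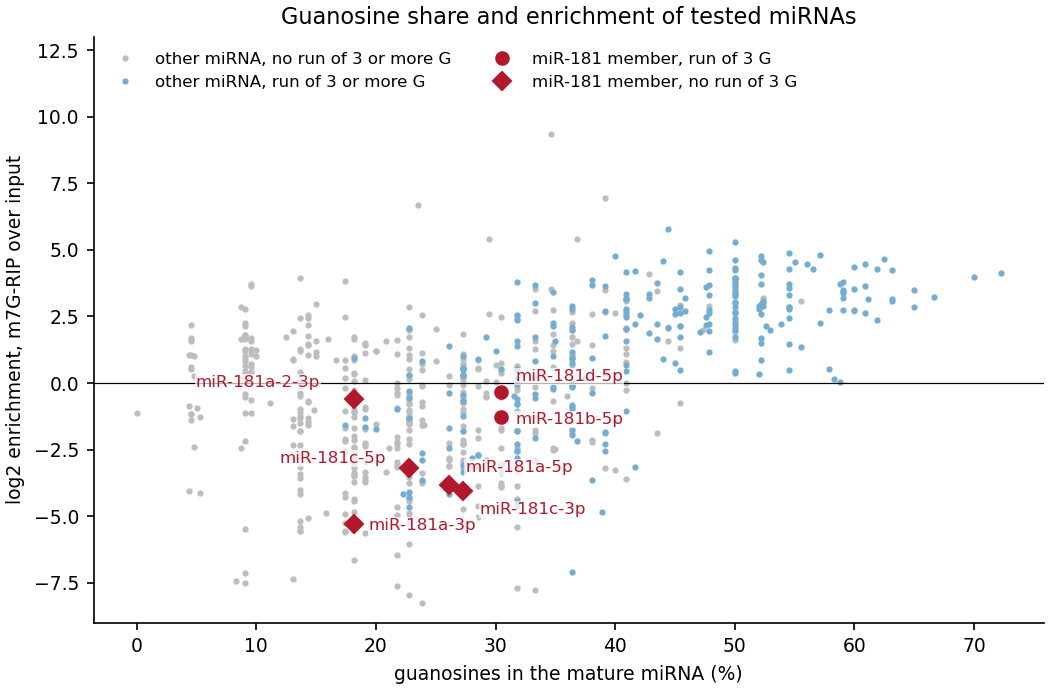
Log2 enrichment of m7G-RIP over input against the guanosine share (%) of the mature sequence for the 714 tested miRNAs with a sequence, with blue dots for those holding a run of 3 or more G. The miR-181 members (red) include miR-181a-3p and miR-181a-2-3p at the same guanosine share, 18.2%, and at -5.29 and -0.61.

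The hairpins were also searched for 4 runs of at least 2 G with 1 to 4 bases between runs, the kind of motif that can fold into a G-quadruplex. None of the 5 miR-181 hairpins with a RefSeq sequence held it, against 22% of the tested miRNAs with a hairpin sequence. The motifs in the study's methods set other limits on the bases between runs, some of them wider. Those motifs were not searched here, so the absence holds for this limit only. The study's G-score, the highest mean over a window of 20 bases in which G counts up and C counts down, was 0.50 for MIR181A1, 0.80 for MIR181A2, 0.95 for MIR181B1, 1.35 for MIR181C and 1.70 for MIR181D, beside a median of 0.95. The member made only from MIR181D, miR-181d-5p, had a log2 enrichment of -0.32 and that made only from MIR181A2, miR-181a-2-3p, of -0.61, against -5.29 for miR-181a-3p from MIR181A1. The other arm miR-181b-3p, made only from MIR181B1, had -1.45. With it, these arms did not follow the order of the scores. Both arms of MIR181C passed the filter through the input alone and are not set against the score.

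Against other families of near-identical members, the summed 5p arms of miR-181 were set within each library against those of let-7 (let-7a to g and i), which are known to restrain growth, and of miR-30 (a to e). Relative to let-7, the log2 ratio of miR-181 went from -3.44 ± 0.13 to -6.76 ± 0.07 (SD, n = 3 each). The difference was -3.32 or 9.99-fold (exact permutation test, two-sided, p = 0.1), and 32.1% of all pairs of single miRNAs differed by as much. It was -3.07 with counts divided by the number of loci and -2.19 without miR-181a-5p, so that part of its size rests on that member. Relative to miR-30 the log2 ratio of miR-181 went from -5.38 ± 0.04 to -6.23 ± 0.29 (SD, n = 3 each). This difference of -0.85 was reached or passed by 79.8% of all pairs. Without miR-181a-5p it was 0.28, so that its sign rests on that member. The range of log2 enrichment within the 5p arms was 3.49 for miR-181 (4 arms), 3.31 for let-7 (8 arms) and 3.68 for miR-30 (5 arms).

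The tested miRNAs whose log2 CPM over the 6 libraries came nearest to miR-181a-5p were miR-27a-3p (root mean square difference 0.29), miR-30b-5p (0.52), miR-9-5p (0.53), miR-148b-3p (0.62) and miR-200a-3p (0.69). Their log2 enrichments were -3.37, -4.66, -3.15, -2.91 and -4.33, and all were called depleted (adjusted p from 9.37e-11 to 2.97e-09 in the edgeR test). The m7G-RIP libraries were part of this choice. Enrichments near that of miR-181a-5p therefore followed from it, and the calls are no separate result. None of them shares the miR-181 seed.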

How the data were processed

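The authors trimmed adaptors with Trimmomatic, mapped reads to GRCh38 (STAR in the study's methods with at most 1 mismatch and up to 10 loci per read, Bowtie2 in the submitters' processing notes) and used featureCounts to assign them to the mature miRNAs of miRBase. What the authors deposited are raw counts for each miRNA in each library, without normalization. How reads with several loci were counted is not given in the sources used here. Of counts below 200, 85.1% were even for miRNAs with 2 loci against 46.5% with 1 locus, and 95.7% were divisible by 4 for those with 4 loci, the pattern of a read counted at each locus. The counts of miR-181a-5p and miR-181b-5p were all above 200 and were not all even, so the pattern was not shown for these members.

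miRNAs were kept by filterByExpr (edgeR 4.0.16, R 4.3.3; minimum count 10, minimum total 15), scaled by TMM and tested with edgeR's quasi-likelihood test, unpaired, with Benjamini-Hochberg adjustment over all tested miRNAs. The standard error is the absolute log2 enrichment over the square root of F. Ratios between members used a pseudocount of 0.5 and an exact permutation test (scipy 1.17.1). On simulated data with 800 miRNAs, log2 changes of 1, 2 and 3 were recovered with the right sign in 57.6%, 94.0% and 91.0% of cases. There, 66, 67 and 67 miRNAs were changed by these sizes, nearly evenly up and down and at a fixed dispersion. Far more were called in the real data (321 enriched and 305 depleted). Recovery under such wide change was not tested, and false calls were not counted. Libraries within a group differed by more than sampling noise (chi-square divided by its degrees of freedom, 17.5 to 105). Intervals cover counting error only, since reads carry no molecular identifiers. Genes at the loci are from GENCODE release 44, on GRCh38. RefSeq mature sequences matched 714 of the 800 tested miRNAs and hairpins 650.

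Named miRNAs are the members, the other arms of their hairpins and the 5 nearest in level to miR-181a-5p; members and lists were chosen with earlier results of these data known. miR-4262 and the near-identical pairs were added after values were seen. Alternatives were other scalings (total counts, upper quartile, DESeq2's size factors), the Wald test of DESeq2 1.42.0, leaving out the filter, requiring 10 counts in each library, an adjusted p under 0.01, the replicate number as a block, other pseudocounts, and leaving out each library. Sequences of hairpins and mature miRNAs not matched were not analysed here.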

Additional observations from a re-analysis of the deposited data

How the results depend on the processing

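miR-181a-5p and miR-181a-3p stayed depleted and called under each alternative in which they were tested. So did miR-181c-3p, but it passed the filter through the input alone and had little chance to show anything else. Of 86 values of the 7 members, 73 kept both sign and call and 4 reversed. These values include both arms of miR-181c, for which the same limit holds. The reversals were miR-181d-5p, 0.77 when scaled by total counts and 0.50 by the upper quartile, and miR-181a-2-3p, 0.47 and 0.22. miR-181d-5p passed as depleted with DESeq2's size factors (-0.67), DESeq2's Wald test (-0.66), no filter (-0.63) and at least 10 counts in every library (-0.45), and ranged from -0.46 to -0.18 with each library left out, where it passed without m7G-RIP replicate 1. miR-181a-2-3p ranged from -0.87 to -0.50 with each library left out. miR-181b-5p was -0.20 with total counts and not called. These shifts follow the median of all tested miRNAs, which each scaling moves. Under both of these scalings 1 member was enriched, miR-181d-5p. The number depleted, 6, ranged from 4 to 7 when single libraries were left out: without any input library miR-181c-5p was not tested and miR-181a-2-3p not called. Without m7G-RIP replicate 2, both remaining m7G-RIP libraries had 0 counts of miR-181c-5p, and its fitted -7.44 is no bound. At least 10 counts in every library, which leaves 426 miRNAs, gave 182 enriched and 175 depleted miRNAs in place of 321 and 305; with total counts 198 were depleted.

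Of 112 values for differences between members or families, 1 reversed, the miR-30 comparison without miR-181a-5p at 0.28. Libraries of equal number in the 2 groups showed no common deviation (correlations of -0.01, -0.03 and 0.06), so the numbers are not taken to pair them. With the replicate block 6 members were depleted and no call on a member changed (miR-181a-2-3p -0.65, miR-181d-5p -0.32), with 296 enriched and 295 depleted miRNAs in all. Depth limits both arms of miR-181c, miR-181b-2-3p and miR-181d-3p.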

Other observations

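Pairs of miRNAs with mature sequences at most 3 edits apart (substitutions, insertions or deletions) and at least 10 counts in every library were listed after the miR-181 values had been seen. There were 72 such pairs, with a median absolute difference in log2 enrichment of 0.75, measured within libraries. miR-181a-3p against miR-181a-2-3p was the widest of the 72 at 4.61, ahead of let-7e-5p against let-7g-5p at 3.30 and miR-100-5p against miR-99a-5p at 3.14. miR-181a-5p against miR-181b-5p was at place 8 with 2.52. These pairs share members and families and were not tested.

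Of the arms from the second copies of the clusters, miR-181b-2-3p was at or near the limit of detection in m7G-RIP (1, 0 and 1 counts), so that the contrast between the chromosome 1 and chromosome 9 copies seen for the miR-181a 3p arms could not be examined for miR-181b.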
